A study of Mus musculus with 13 samples.

Results

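Small RNA of the prefrontal cortex (PFC), the part of the frontal lobe that takes part in planning and in the control of repetitive behavior, was compared between 4 TgR mice and 3 FVB/N mice. Of the 13 libraries of the series, these 7 were all those whose titles name the PFC. TgR mice carry a transgene for human AChE-R, the stress-related splice variant of acetylcholinesterase, which a minimal promoter-enhancer of cytomegalovirus drives constitutively and not in a chosen cell type. FVB/N mice are the inbred strain of the transgenic line and carry no transgene. No treatment is named for either group, and the sex, age and founder of the sequenced mice are not given in the sources used here. Each library came from 1 animal, with 300 ng of total RNA and an RNA integrity number of 8.6 to 9.3 over all libraries. TgR mice were sequenced whatever the strength of their stereotypic behavior, so the TgR group holds mice that may differ in it. The transgene itself cannot be checked here, because only miRNAs were counted.

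miRNAs are short RNAs, cut from hairpin precursors, that guide Argonaute proteins to messenger RNAs and reduce their translation and stability. Target choice rests mainly on the seed, bases 2 to 8 of the mature miRNA, and miRNAs with the same seed form a family. Many hairpins lie side by side in the genome and are transcribed together, and each hairpin can give a mature miRNA from its 5p and from its 3p arm. In the cortex, miR-128, miR-9 and miR-124 are known as miRNAs of neurons, and miR-132 and miR-212, which share a seed, are known to follow neuronal activity and to target acetylcholinesterase.

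The mature sequences below are those of RefSeq on GRCm38, printed 5′ to 3′ with the seed in capitals. They were chosen from groups of miRNAs with a low or a high median difference between genotypes, or from miRNAs that differed strongly between single libraries. Not every such miRNA is shown, and the reference used held no mature sequence of miR-383. The miR-200 group, known from epithelia and olfactory neurons, holds 2 seeds that differ at a single base, and the miR-183, miR-96 and miR-182 cluster, known from sensory organs, holds 3 related seeds.
miR-200a-3p: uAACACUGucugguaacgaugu
miR-200b-3p: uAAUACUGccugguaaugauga
miR-200c-3p: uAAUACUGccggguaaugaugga
miR-429-3p: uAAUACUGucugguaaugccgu
miR-182-5p: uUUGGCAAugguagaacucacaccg
miR-183-5p: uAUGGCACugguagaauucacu
miR-96-5p: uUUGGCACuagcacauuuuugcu
miR-298-3p: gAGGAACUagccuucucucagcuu
miR-296-5p: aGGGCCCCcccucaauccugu
miR-199a-5p: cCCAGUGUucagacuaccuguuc
miR-199a-3p: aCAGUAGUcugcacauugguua
miR-199b-3p: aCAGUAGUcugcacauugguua
miR-10b-5p: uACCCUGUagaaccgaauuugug
miR-29a-3p: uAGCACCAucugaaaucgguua
miR-29b-3p: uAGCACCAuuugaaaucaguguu
miR-29c-3p: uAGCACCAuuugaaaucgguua
miR-206-3p: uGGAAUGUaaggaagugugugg
miR-199a-3p and miR-199b-3p are the same sequence. Their counts were equal in 6 of the 7 libraries and differed by 2 in FVB/N replicate 1 (1175 and 1173), so they amount to 1 measurement. Both rows still entered the tests and the counts, medians and sums of their list.

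Each library held between 5350259 and 10858410 counts when every mature miRNA entered once, the lowest being TgR replicate 2. Levels are given in CPM, a count relative to the library total after TMM scaling, which corrects that total for differences in composition. A signal of 3 counts, the least that could be told from 0, was 0.287 to 0.542 CPM, for counting error only. The neuronal miRNAs were well detected in every library, with miR-124-3p at 6552 to 8600 CPM. The counts of every library pair within a genotype differed by far more than sampling noise (chi-square per degree of freedom from 47.9 to 558).

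Between the 4 TgR and the 3 FVB/N PFC samples, miR-383-5p was the single miRNA that differed past the threshold, and it fell to 30.2% of its FVB/N level. miR-383-5p was at 1411, 1180 and 1461 CPM in the FVB/N libraries and at 473, 304, 459 and 396 CPM in the TgR libraries. The groups were far apart, as the highest TgR library lay well below the lowest FVB/N library. The means were 1350 ± 150 CPM (SD, n = 3) and 408 ± 76.8 CPM (SD, n = 4). The log2 fold change was -1.73 (standard error, SE, 0.17, 95% interval -2.12 to -1.33, adjusted p = 0.0037, quasi-likelihood test of edgeR, adjusted by Benjamini-Hochberg). In such bulk tissue, fewer cells that make a miRNA and less of it per cell cannot be told apart. The hairpin lies on chromosome 8 of GRCm38, from 38252133 to 38252202 on the minus strand, in an intron of Sgcz, which encodes zeta-sarcoglycan. Its other arm, miR-383-3p, had 15, 8 and 3 counts in FVB/N and 3, 6, 1 and 2 counts in TgR libraries, a log2 fold change of -1.45 (SE 0.75) that did not pass the test, with overlapping groups. Both arms of this hairpin lay on the same side of 0, but the 3p arm was at or under 3 counts in 4 of the 7 libraries.

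Over all 628 tested miRNAs, 1 (0.159%) passed an adjusted p of 0.05, and all others had an adjusted p of at least 0.999. At an unadjusted p under 0.05 there were 20 (3.18%), 5 higher (0.796%) and 15 lower (2.39%) in TgR mice. For 30 miRNAs (4.78%) the groups did not overlap, with all TgR libraries above all FVB/N libraries for 15 (2.39%) and below them for 15 (2.39%). Libraries in random order, 4 against 3, do not overlap with a probability of 0.0571. Neither share, of unadjusted p under 0.05 or of groups without overlap, was thus above that of random order. Lack of overlap alone therefore does not single out a miRNA. The log2 fold changes were centered on 0, with 318 above and 310 below it, a median of 0.0028, and a 5th and 95th percentile of -0.59 and 0.46.

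**Figure D1:**
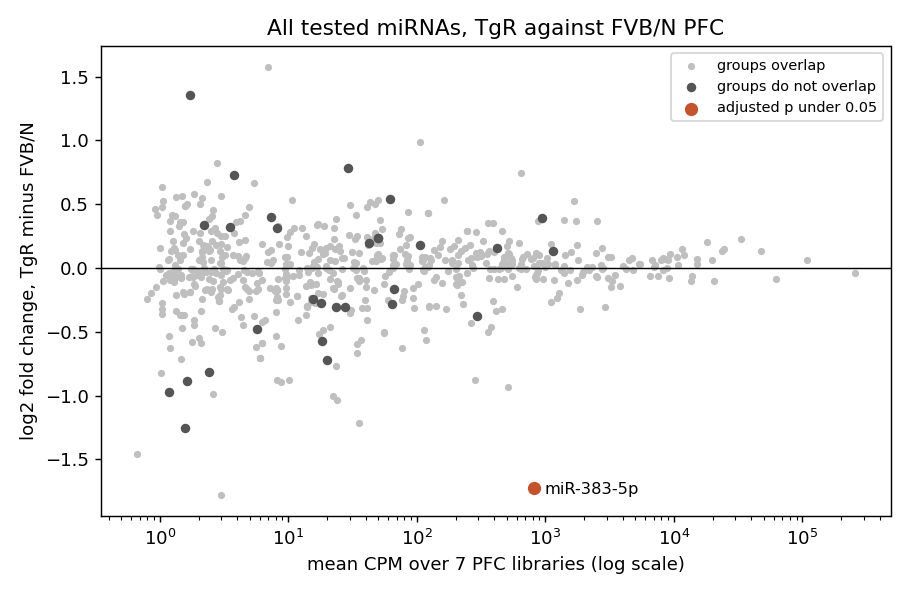
Log2 fold change, TgR minus FVB/N, against the mean CPM over the 7 PFC libraries (log scale) for the 628 tested miRNAs, 1 point each. miR-383-5p, the colored point at -1.73, lies apart from other miRNAs of its abundance, and the dark points are the other miRNAs whose groups did not overlap.

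The precision of these differences was sufficient to limit large changes for most miRNAs. The median SE of the log2 fold change was 0.24 over all tested miRNAs and 0.16 for those with a mean of at least 100 CPM. The 95% interval of the log2 fold change lay between -1 and 1, that is within a 2-fold change either way, for 444 of the 628 (70.7%) and for 88.3% of those with at least 100 CPM. These intervals are not adjusted for the number of miRNAs, and smaller differences remain possible for every one of them.

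Below miR-383-5p, the miRNAs with the smallest p among those without overlap that were lower in TgR mice did not pass the adjusted threshold. miR-182-5p was at 18.9, 26.0 and 32.3 CPM in FVB/N and at 15.3, 14.6, 16.9 and 15.5 CPM in TgR libraries, a log2 fold change of -0.72 (SE 0.20, unadjusted p = 0.0072, edgeR). The TgR libraries lay close together just below the lowest FVB/N library. miR-491-5p, from an intron of Focad, was at 26.0, 20.2 and 20.8 CPM against 16.5, 12.6, 15.6 and 15.2 CPM, a log2 fold change of -0.57 (SE 0.17, unadjusted p = 0.010, edgeR). miR-485-5p, a neuronal miRNA of the imprinted Dlk1-Dio3 region, was at 351, 299 and 365 CPM against 284, 204.2, 275 and 281 CPM, a log2 fold change of -0.37 (SE 0.16, unadjusted p = 0.042, edgeR). Both differed by less than 1 on the log2 scale, and in miR-485-5p TgR replicate 2 lay apart below the others. miR-298-3p, miR-1197-3p, miR-466h-3p and let-7k, with log2 fold changes of -1.25, -0.82, -0.98 and -0.89, all had means under 4 CPM in both groups, where a few counts decide the order of the libraries.

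Of the miRNAs whose TgR libraries all lay above the FVB/N libraries, miR-598-3p, from an intron of Xkr6, was the most abundant of those named. It was at 676, 824 and 902 CPM in FVB/N and at 1118, 1093, 1048 and 953 CPM in TgR libraries, a log2 fold change of 0.40 (SE 0.13, unadjusted p = 0.016, edgeR). miR-199a-5p, known from mesenchymal cells, was at 52.3, 45.5 and 50.5 CPM against 71.9, 80.2, 80.7 and 54.3 CPM, a log2 fold change of 0.54 (SE 0.18, unadjusted p = 0.015, edgeR). In both, TgR replicate 4 was the TgR library closest to the FVB/N mice. miR-10b-5p, encoded among the Hox genes of chromosome 2 that pattern the body axis, was at 21.3, 14.6 and 25.8 CPM against 27.0, 31.4, 33.97 and 49.4 CPM, a log2 fold change of 0.79 (SE 0.27, unadjusted p = 0.019, edgeR), and here TgR replicate 4 was the highest. miR-448-3p, from an intron of the serotonin receptor gene Htr2c, was at 2.29, 2.89 and 3.10 CPM against 4.13, 3.25, 4.31 and 6.41 CPM (log2 fold change 0.73, SE 0.28), and miR-205-5p, an epithelial miRNA, was under 3 CPM in every library (log2 fold change 1.35, SE 0.51). let-7f-2-3p, miR-467c-5p and miR-467a-5p differed by 0.40, 0.31 and 0.24 on the log2 scale with unadjusted p of 0.073, 0.10 and 0.14 (edgeR). None of these passed the adjusted threshold.

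**Figure D2:**
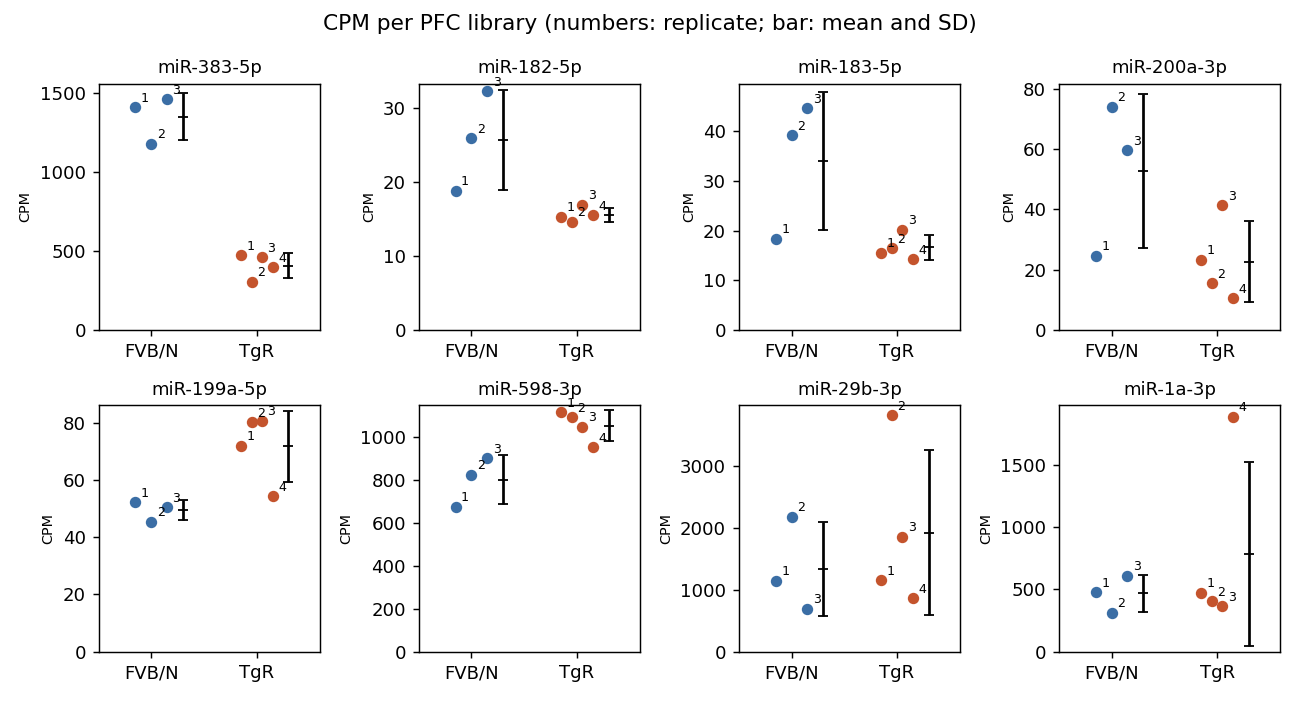
CPM of 8 miRNAs in each PFC library (points, numbered by replicate) with the mean and SD of each genotype (bars); the vertical axes start at 0 and differ between panels. miR-383-5p separates the genotypes widely, miR-182-5p, miR-199a-5p and miR-598-3p by a small gap, miR-183-5p and miR-200a-3p overlap, and in miR-29b-3p and miR-1a-3p a single TgR library stands above the others.

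The most abundant miRNAs, which make up most of the PFC libraries, differed little. miR-128-3p ranged from 200275 to 292304 CPM in FVB/N and from 213283 to 279823 CPM in TgR libraries, a log2 fold change of -0.04 (SE 0.15). miR-9-5p ranged from 97712 to 109731 CPM and from 108381 to 111595 CPM, a log2 fold change of 0.06 (SE 0.07). miR-26a-5p, at 60338 to 66346 CPM against 57165 to 62163 CPM, had a log2 fold change of -0.08 (SE 0.07). The groups overlapped in each of them. For the other 7 of the 10 most abundant, miR-99a-5p, miR-218-5p, miR-125b-5p, miR-29a-3p, miR-126a-3p, let-7f-5p and let-7g-5p, the log2 fold changes lay between -0.10 and 0.23, and all 7 had overlapping groups.

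A chosen list of miRNAs linked to acetylcholinesterase and cholinergic signaling does not cover every such miRNA. Its 11 members, from the hairpins of miR-132, miR-212, miR-125b, miR-370 and miR-204, were all tested and differed little in the PFC. Of these, 5 were above and 6 below 0, from -0.31 to 0.15, with a median of -0.0016 (-0.059 to 0.086 with each library left out) beside 0.0028 over all tested miRNAs, and none passed any threshold, unadjusted p (edgeR) included. miR-132-3p, which targets acetylcholinesterase, was at 3825, 3156 and 2756 CPM in FVB/N and at 2565, 3330, 2528 and 2078 CPM in TgR libraries, a log2 fold change of -0.31 (SE 0.18, 95% interval -0.71 to 0.10; -0.17 without FVB/N replicate 1). TgR replicate 2 lay among the FVB/N libraries and the other TgR libraries below them. The other arm, miR-132-5p, was at 0.06 (SE 0.13). miR-212-3p, which shares the seed of miR-132-3p and lies beside it, was at 246, 120 and 108 CPM against 123, 173, 122 and 95.5 CPM, a log2 fold change of -0.30 (SE 0.32) that rested on FVB/N replicate 1 and was 0.17 without it. miR-212-5p was at 0.01 (SE 0.18). miR-125b-5p (0.15, SE 0.11), miR-125b-2-3p (0.06, SE 0.12) and miR-125b-1-3p (-0.01, SE 0.17) overlapped between genotypes, and so did miR-370-3p (-0.01, SE 0.15), miR-370-5p (0.09, SE 0.17), miR-204-5p (-0.04, SE 0.17) and miR-204-3p (SE 0.27). For 8 of these 11 the sign of the difference changed with a library left out, so no direction is given for them.

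Groups of miRNAs were described next by their counts and medians, which are no tests. Of the 10 tested members of an epithelial and olfactory list, 8 were below and 2 above 0 on the log2 scale, with a median of -0.67 beside 0.0028 over all tested miRNAs. None passed the adjusted threshold, and at an unadjusted p under 0.05 (edgeR) 3 were lower (2.39% over all tested) and 1 was higher (0.796% over all tested). miR-200a-3p was at 24.5, 74.0 and 59.6 CPM in FVB/N and at 23.3, 15.5, 41.3 and 10.5 CPM in TgR libraries, a log2 fold change of -1.21 (SE 0.50). miR-200b-3p was at 16.0, 25.5 and 52.4 CPM against 18.7, 8.85, 24.7 and 9.86 CPM, a log2 fold change of -1.004 (SE 0.47; -0.40 without FVB/N replicate 3). FVB/N replicate 1 lay among the TgR libraries in both, and TgR replicates 2 and 4 were the lowest. The other members of the miR-200 group, miR-429-3p (-0.87, SE 0.43), miR-200c-3p (-0.61, SE 0.40) and miR-141-3p (-0.09, SE 0.59), overlapped between genotypes as well. miR-203-3p, an epithelial miRNA of skin at 137.8 to 182.2 CPM, was at 0.06 (SE 0.14), and miR-205-5p was above 0, so the epithelial members were not all on 1 side. Without TMM scaling, the summed level of the list was 296 to 387 CPM in FVB/N and 210 to 317 CPM in TgR libraries. Whether the amount of such tissue in the samples took part in these values was not tested.

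All 6 tested members of a meningeal and mesenchymal list, the miRNAs of the miR-199 and miR-214 hairpins, were above 0, with a median of 0.49, and 1 of them, miR-199a-5p, was higher at an unadjusted p under 0.05 (edgeR; 0.796% over all tested). They come from fewer than 6 independent measurements, since miR-199a-3p and miR-199b-3p share nearly all their reads. This shared 3p sequence was at 117, 64.2 and 125 CPM in FVB/N and at 158, 129.2, 145.01 and 119 CPM in TgR libraries, a log2 fold change of 0.43 (SE 0.24; 0.18 without FVB/N replicate 2). FVB/N replicate 2 was the lowest library by far, and the groups overlapped. miR-214-5p (0.67, SE 0.37), miR-214-3p (0.57, SE 0.52) and miR-199b-5p (0.45, SE 0.28) were all under 5 CPM. Without TMM scaling, the summed level of the list was 176 to 317 CPM in FVB/N and 287 to 389 CPM in TgR libraries. This sum, like the count of 6 and the median, holds the shared 3p reads under both names. miR-10a-5p, the relative of miR-10b-5p with the same seed, was at 36.0, 28.4 and 49.9 CPM against 60.6, 31.8, 60.8 and 63.0 CPM, a log2 fold change of 0.50 (SE 0.29), with TgR replicate 2 among the FVB/N libraries and the other TgR libraries above them.

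Muscle miRNAs stood apart in a single TgR library. miR-1a-3p was at 477, 314 and 611 CPM in FVB/N and at 474, 405, 364 and 1887 CPM in TgR libraries, and miR-133a-3p, which is transcribed with it, at 38.1, 20.5 and 26.2 CPM against 27.2, 24.03, 24.4 and 75.2 CPM. miR-206-3p, the skeletal muscle relative of miR-1a, was at 3.09, 2.45 and 4.31 CPM against 2.38, 0.361, 1.89 and 33.97 CPM. All 3 were highest in TgR replicate 4, and the other TgR libraries lay within or below the FVB/N range. The log2 fold changes were 0.74 (SE 0.60), 0.42 (SE 0.45) and 1.57 (SE 1.21), and without TgR replicate 4 they were -0.17, -0.16 and -0.996. miR-133b-3p, beside miR-206 in the genome, did not follow, at 2.30 CPM in that library and 0.841 to 4.89 CPM in the others. The median of the 4 muscle miRNAs was 0.58 with all libraries and -0.46 without TgR replicate 4. The same library also held the most miR-1298-5p (329 CPM against 101 to 176 CPM in the other 6), miR-1264-3p (80.8 against 23.8 to 44.5 CPM), miR-448-3p and miR-10b-5p.

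The lists of other cell types had medians between -0.17 and 0.22. Neuronal miRNAs had a median of 0.030 over 11 tested members, red blood cell miRNAs -0.029 over 5, vascular miRNAs -0.021 over 4, miRNAs of microglia and inflammation -0.098 over 4, white blood cell miRNAs 0.14 over 4, oligodendrocyte miRNAs -0.17 over 4, and choroid plexus and ciliated cell miRNAs 0.22 over 11. No member of these lists passed the adjusted threshold. At an unadjusted p under 0.05 (edgeR), 1 of 4 members of the list of microglia and inflammation, of which all 4 were below 0, was lower (2.39% over all tested), and in the choroid plexus list 1 was lower and 1 higher (0.796% over all tested). Most of these medians moved with a single library: the choroid plexus median was 0.0068 without TgR replicate 3, the oligodendrocyte median -0.026 and the vascular median 0.23 without FVB/N replicate 1, the white blood cell median -0.094 and the neuronal median -0.013 without TgR replicate 2, and the red blood cell median 0.064 without FVB/N replicate 1. The lowest members of the neuronal list and of the list of microglia and inflammation were both highest in FVB/N replicate 1. miR-129-2-3p, a neuronal miRNA, was at 1486, 288 and 323 CPM in FVB/N and at 388, 342, 429.2 and 305 CPM in TgR libraries, a log2 fold change of -0.93 (SE 0.53) that was 0.26 without this library. miR-155-5p, a miRNA of activated immune cells, was at 5.49, 2.02 and 3.21 CPM against 1.55, 1.99, 1.58 and 2.20 CPM, a log2 fold change of -0.99 (SE 0.35) that was -0.53 without FVB/N replicate 1. In the choroid plexus list, miR-211-5p was at 2.79, 1.44 and 10.8 CPM against 1.14, 1.81, 1.68 and 1.34 CPM, a log2 fold change of -1.78 (SE 0.62), with FVB/N replicate 3 far above the other libraries, and -0.55 without it. These 3 miRNAs were chosen after their values were seen.

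**Figure D3:**
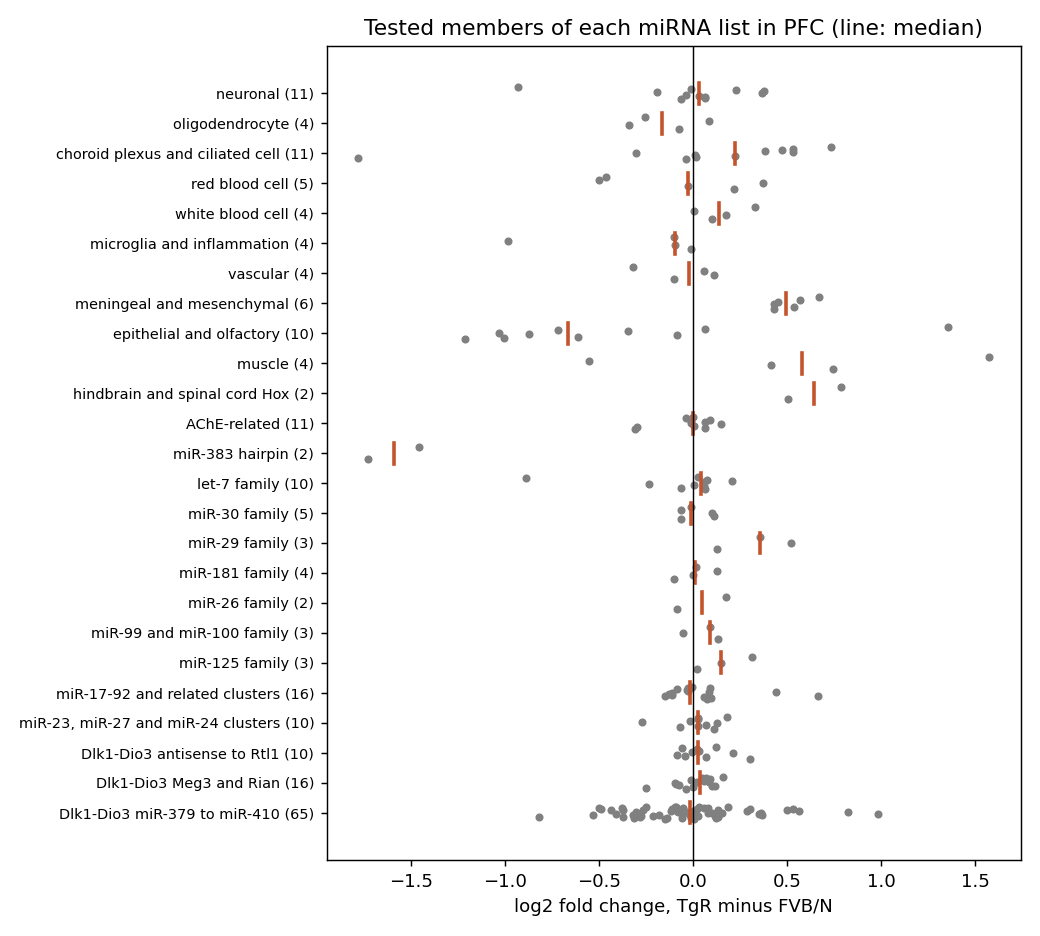
Log2 fold change, TgR minus FVB/N, of every tested member (points) of each miRNA list, with the number of tested members in brackets and the median as a line. The miR-383 hairpin and the epithelial and olfactory list have the lowest medians (-0.67 for the latter), the mesenchymal, muscle and Hox lists the highest, and the large lists of abundant families and of the Dlk1-Dio3 clusters are centered near 0.

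By seed, 14 families had at least 3 members among the 529 tested miRNAs with a RefSeq sequence. The other tested miRNAs could join no family. The lowest median was that of miR-200b-3p, miR-200c-3p and miR-429-3p, which share AAUACUG, at -0.87 with all 3 members below 0, and at -0.40 without FVB/N replicate 3. The next were the miR-25, miR-32, miR-363 and miR-92 family at -0.087 and the miR-17, miR-20, miR-93 and miR-106b family at -0.0066, both close to the median of all tested miRNAs, and the latter above 0 with most libraries left out. The highest median was that of the miR-29 family, known to increase as the brain matures, at 0.35 with all 3 members above 0. The let-7 3p arms with the seed UAUACAA followed at 0.24 (0.034 without FVB/N replicate 1) and the miR-130 and miR-301 family at 0.19 (-0.099 without FVB/N replicate 3). miR-29b-3p was at 1144, 2180 and 696 CPM in FVB/N and at 1156, 3820, 1857 and 866 CPM in TgR libraries, and miR-29c-3p at 306, 530 and 172 CPM against 245, 853, 410 and 210 CPM. Both varied more within each genotype than between the genotypes, with TgR replicate 2 the highest and FVB/N replicate 3 the lowest. Their log2 fold changes, 0.52 (SE 0.55) and 0.35 (SE 0.54), were -0.06 and -0.23 without TgR replicate 2. miR-29a-3p, which ranged only from 19061 to 29082 CPM, was at 0.13 (SE 0.13). The let-7 family, with 10 members of seed GAGGUAG, had a median of 0.041 (-0.093 to 0.22 with each library left out), 7 above and 3 below 0, and its lowest member was let-7k at under 3 CPM.

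By position, 41 genomic clusters, with hairpins at most 10 kb apart on the same strand, had at least 3 tested members. Clusters were built from the 602 tested miRNAs with a position. The lowest median was that of miR-429, miR-200a and miR-200b on chromosome 4 (156053905 to 156055750, minus strand, in introns of Ttll10, with miR-429 also in an exon of Gm13648), at -1.004 with 3 of 3 below 0. Next came miR-182, miR-96 and miR-183 on chromosome 6 (30165918 to 30169737, minus strand, between genes), at -0.72 with 3 of 3 below 0. miR-183-5p was at 18.4, 39.1 and 44.6 CPM in FVB/N and at 15.5, 16.4, 20.2 and 14.3 CPM in TgR libraries, a log2 fold change of -1.03 (SE 0.30, unadjusted p = 0.0077, edgeR). FVB/N replicate 1 was lower than TgR replicate 3, so the groups overlapped by this 1 library. miR-96-5p, at 4.11 to 14.0 CPM, was at -0.35 (SE 0.44) and above 0, at 0.11, without FVB/N replicate 2. The third was miR-296 and miR-298 on chromosome 2 (174267047 to 174267585, minus strand, between genes, in the imprinted Gnas region), at -0.70 with 4 of 4 below 0. miR-296-5p was at 16.0, 10.7 and 14.4 CPM against 4.13, 8.13, 5.05 and 12.4 CPM, a log2 fold change of -0.88 (SE 0.37), and miR-298-5p at 52.3, 52.0 and 97.3 CPM against 44.7, 36.1, 43.2 and 64.2 CPM, one of -0.51 (SE 0.28; -0.13 without FVB/N replicate 3). In both, TgR replicate 4 lay within the FVB/N range. miR-296-3p was at -0.16 (SE 0.31) and at 0.20 without FVB/N replicate 3.

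The highest cluster median was that of miR-199a-2 and miR-214 on chromosome 1 (162217814 to 162223477, plus strand, in exons of Dnm3os and, on the other strand, an intron of Dnm3), at 0.55 with 4 of 4 above 0. miR-764 and miR-1264, in introns of Htr2c on chromosome X (147002259 to 147010686, plus strand), had a median of 0.47 with 2 of 3 above 0, which was 0.071 without TgR replicate 4. miR-1264-3p was at 28.3, 29.9 and 42.7 CPM in FVB/N and at 37.4, 23.8, 44.5 and 80.8 CPM in TgR libraries, a log2 fold change of 0.47 (SE 0.38), which without TgR replicate 4, the highest library, was 0.071. miR-1264-5p (0.53, SE 0.46) was highest in the same library, at 22.5 CPM. miR-130b and miR-301b on chromosome 16 (17124061 to 17124496, minus strand, in an intron of 2610318N02Rik) had a median of 0.27 with 3 of 3 above 0, from 0.27 to 0.28. The large imprinted clusters of chromosome 12 lay near 0. Of 65 tested miRNAs from miR-379 to miR-410, 25 were above and 40 below 0 with a median of -0.014, and 3 of them, miR-1197-3p, miR-412-5p and miR-485-5p, were lower at an unadjusted p under 0.05 (edgeR; 2.39% over all tested). miR-412-5p was at 56.1, 75.6 and 70.0 CPM against 43.2, 44.8, 42.9 and 59.0 CPM, a log2 fold change of -0.50 (SE 0.18), with TgR replicate 4 inside the FVB/N range. In the cluster within Sfmbt2 on chromosome 2, whose near-identical hairpins can share reads, 14 of 38 tested miRNAs were above and 24 below 0, with a median of -0.17 that gives no direction: it was 0.094 without FVB/N replicate 1, 0.014 without TgR replicate 4, and 0.21 over the members that averaged 300 normalized counts or more.

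The choice of arm was compared through the log2 ratio of 5p to 3p counts within each hairpin, which does not depend on the scaling between libraries. Of the hairpins with enough counts on both arms, 0 (0%) passed an adjusted p of 0.05 and 3 (1.37%) had an unadjusted p under 0.05 (limma). For mir-466h the ratio was 0.74, 0.25 and -0.53 in FVB/N and 0.82, 1.38, 1.52 and 1.47 in TgR libraries on the log2 scale, a difference of 1.14 (SE 0.33) on few counts of the 3p arm. For mir-154 the difference was -0.84 (SE 0.32), and for mir-92b it was 0.44 (SE 0.18). In mir-466h and mir-92b all TgR ratios lay above all FVB/N ratios, and in mir-154 all lay below. These 3 hairpins were picked by their unadjusted p. How many of the other hairpins also lacked overlap is not given here, so this separation does not single them out.

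The makeup of the libraries as a whole overlapped between genotypes in each measure taken. The 5 most abundant miRNAs held 49.1%, 52.2% and 50.9% of the counts in FVB/N and 50.8%, 47.9%, 50.8% and 51.8% in TgR libraries. The effective number of miRNAs, the exponential of the Shannon entropy, was 39.0, 32.7 and 33.6 against 34.6, 39.5, 35.5 and 33.4. FVB/N replicate 1 and TgR replicate 2 were the most even libraries, so the highest value of each genotype came from 1 mouse. The share of 5p arms was 53.7% ± 2.48 (SD, n = 3) in FVB/N and 54.4% ± 0.752 (SD, n = 4) in TgR mice, that of the let-7 family 7.74% ± 1.57 and 8.11% ± 0.472, that of the Dlk1-Dio3 clusters 6.74% ± 0.4001 and 6.78% ± 0.259, and that of red blood cell miRNAs 0.266% ± 0.0661 and 0.284% ± 0.0985. At the depth of the shallowest library, 936 ± 12.2 miRNAs would be detected in FVB/N and 923 ± 5.85 in TgR mice. An exact two-sided permutation test gave an adjusted p of 0.914 for each of these 7 measures. With 4 mice against 3 it cannot give an unadjusted p below 0.0571, so no measure could pass 0.05.

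Over all tested miRNAs, libraries of different genotype were not detectably farther apart than libraries of the same genotype. The distance between 2 libraries, the root mean square difference of log2 CPM, was on average 0.576 for the 12 pairs of different genotype, 0.642 for the 3 FVB/N pairs and 0.557 for the 6 TgR pairs. The mean distance between genotypes minus that within genotypes was -0.0096 (exact permutation p = 0.971). A larger spread among the TgR than among the FVB/N mice was not detectable either, with a difference of -0.085 between the mean distances (exact permutation p = 0.571, adjusted p = 0.971 for both distance tests). With 4 mice against 3, neither exact test can give a p below 0.0571, so neither could pass 0.05. The biological coefficient of variation was 28.3% in FVB/N and 23.8% in TgR mice when estimated apart.

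The main axis of variation ran across the genotypes. The first principal component held 45.9% of the variance and placed the FVB/N libraries at -5.20, -3.53 and 8.90 and the TgR libraries at 3.90, -11.0, -0.14 and 7.02, so that TgR replicate 2 and FVB/N replicate 3 formed its ends. miR-376a-3p led this component at the low end, at 28.4, 159 and 18.4 CPM in FVB/N and 56.6, 327, 128.6 and 28.9 CPM in TgR libraries. miR-29b-3p and miR-29c-3p were among the 15 leading miRNAs at that end. The neuronal miRNAs miR-137-3p, at 660, 1121 and 476 CPM against 582, 1760, 993 and 545 CPM, and miR-153-3p, at 1091, 1656 and 806 CPM against 1023, 2705, 1494 and 933 CPM, had the same order of libraries at their ends. miR-206-3p led the other end. The component moved with the base composition of the miRNAs: among the 529 tested miRNAs with a RefSeq sequence, the median GC content was 40.9% in the tenth with the lowest loadings, 50% in the tenth with the highest and 47.8% over all, with a Spearman rho of 0.22 across miRNAs, which share libraries and are not independent. The 76 miRNAs of the lowest GC content were on average 0.28 above their own mean over the libraries in TgR replicate 2 and 0.23 below it in FVB/N replicate 3 on the log2 scale. The log2 fold change between genotypes also had a rho of -0.22 with GC content. TgR replicate 2 is the shallowest library, and the part of base composition and depth in the genotype differences was not tested. The second component (18.9%) set FVB/N replicate 1, at 9.78, apart from the other 6 libraries, at -4.21 to 0.11, with miR-129-2-3p at its high end and miR-376a-3p at its low end.

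**Figure D4:**
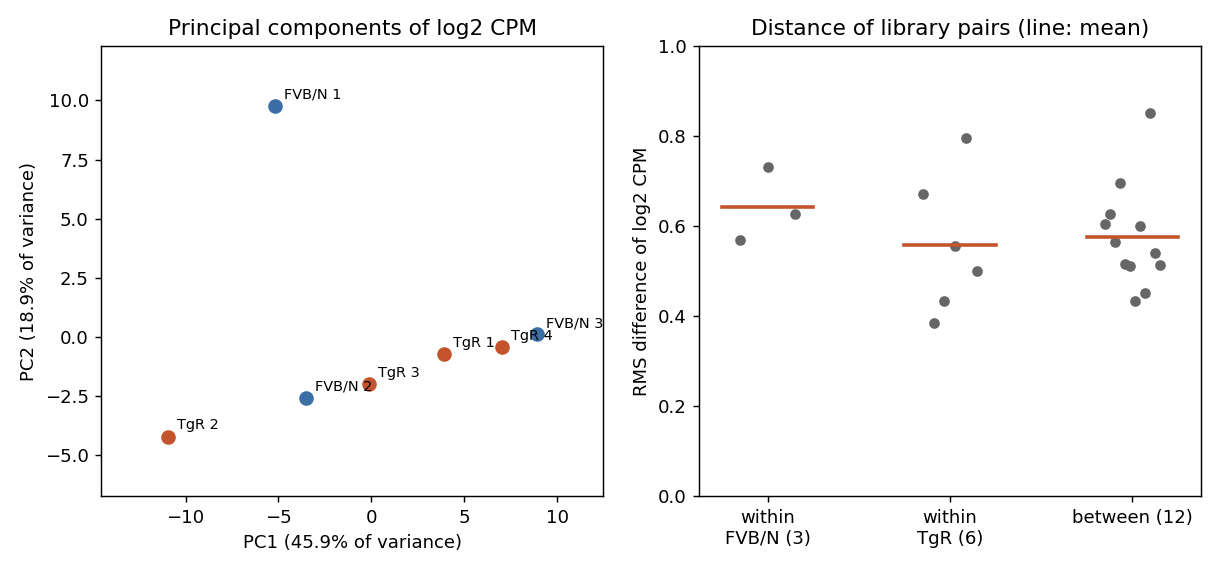
Left, the 7 PFC libraries on the first 2 principal components of log2 CPM (share of variance on each axis), colored by genotype. Right, the root mean square log2 CPM difference of every library pair within and between genotypes, with the number of pairs in brackets and the mean as a line. The genotypes are mixed along the first component, FVB/N replicate 1 stands apart on the second, and the pairs between genotypes (mean 0.576) spread over the same range as those within them.

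The PFC differences were set beside those of the hippocampus, where 3 TgR and 3 FVB/N libraries were made in the same way. The labels do not say whether they came from the same mice. miR-383-5p was lower there too, with a log2 fold change of -1.57 (SE 0.24, adjusted p = 0.0094, edgeR), and the difference between the regions in this effect was 0.17 (SE 0.31, adjusted p = 0.96, edgeR). miR-182-5p was at -0.72 in the PFC and -1.61 in the hippocampus (adjusted p = 0.029, edgeR), miR-183-5p at -1.03 and -1.69 (adjusted p = 0.030, edgeR) and miR-96-5p at -0.35 and -1.53 (adjusted p = 0.049, edgeR). The 3 miRNAs of this cluster thus passed in the hippocampus alone, but the difference between regions did not pass for any of them (adjusted p from 0.56 to 0.85, edgeR). Passing was more frequent in the hippocampus as a whole, with 30 of 619 tested miRNAs beside 1 of 628 in the PFC. miR-298-3p (-1.25 and -1.60) and miR-200a-3p (-1.21 and -1.76) had like values in both regions and passed in neither. In contrast, miR-491-5p, miR-598-3p and miR-199a-5p, without overlap in the PFC, were at -0.01, 0.07 and 0.01 in the hippocampus, differences between regions that were not past the threshold either (adjusted p from 0.56 to 0.78, edgeR).

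Of 647 miRNAs tested for a difference between the regions, 3 (0.464%) passed an adjusted p of 0.05 (edgeR). All 3 were of the miR-34b and miR-34c hairpins on chromosome 9, miRNAs of ciliated cells. miR-34b-5p, of the same hairpins and at 0.22 in the PFC, was not among them. In the PFC the 3 miRNAs that passed did not differ detectably between genotypes. miR-34b-3p was at 20.4, 12.1 and 14.2 CPM in FVB/N and at 15.8, 13.4, 18.2 and 15.5 CPM in TgR PFC, and the hippocampal minus the PFC effect was 2.56 (SE 0.37, adjusted p = 0.0046, edgeR). miR-34c-5p was at 121, 115 and 109 CPM against 122, 90.7, 129.03 and 120 CPM in the PFC, with a difference between regions of 2.42 (SE 0.38, adjusted p = 0.0071, edgeR). For miR-34c-3p, at 2.71 to 5.79 CPM in the PFC, it was 2.63 (SE 0.49, adjusted p = 0.025, edgeR). The 95% interval of the PFC log2 fold change was -0.35 to 0.37 for miR-34c-5p and -0.49 to 0.52 for miR-34b-3p. The number that passed was 10 with DESeq2 and 2 to 8 with each library left out. It was 5 without TgR PFC replicate 2, 5 without FVB/N hippocampus replicate 1 and 8 without TgR hippocampus replicate 2.

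Several others of the 30 miRNAs that passed in the hippocampus did so there alone. For none of those named next did the difference between regions pass. miR-99a-5p was at 0.13 in the PFC and -0.71 in the hippocampus (adjusted p of the difference 0.070, edgeR), and miR-370-3p at -0.01 and -0.80 (adjusted p of the difference 0.24, edgeR). miR-1298-5p was at 0.53 and 2.91 and miR-448-3p at 0.73 and 3.96, with adjusted p of the difference of 0.24 and 0.11 (edgeR). The muscle miRNAs miR-1a-3p and miR-133a-3p were at 0.80 and 0.99 in the hippocampus (adjusted p = 0.030 for both, edgeR), where the difference from the PFC had adjusted p of 0.98 and 0.89 (edgeR). For red blood cell miRNAs, miR-451a was at 0.37 in the PFC and -0.86 in the hippocampus and miR-486a-5p at -0.50 and -1.10, with adjusted p of the difference of 0.24 and 0.77 (edgeR). In the PFC, miR-451a was at 1808, 1585 and 1083 CPM in FVB/N and at 1457, 3060, 1694 and 1512 CPM in TgR libraries, and TgR replicate 2 stood above all others (log2 fold change 0.054 without it).

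**Figure D5:**
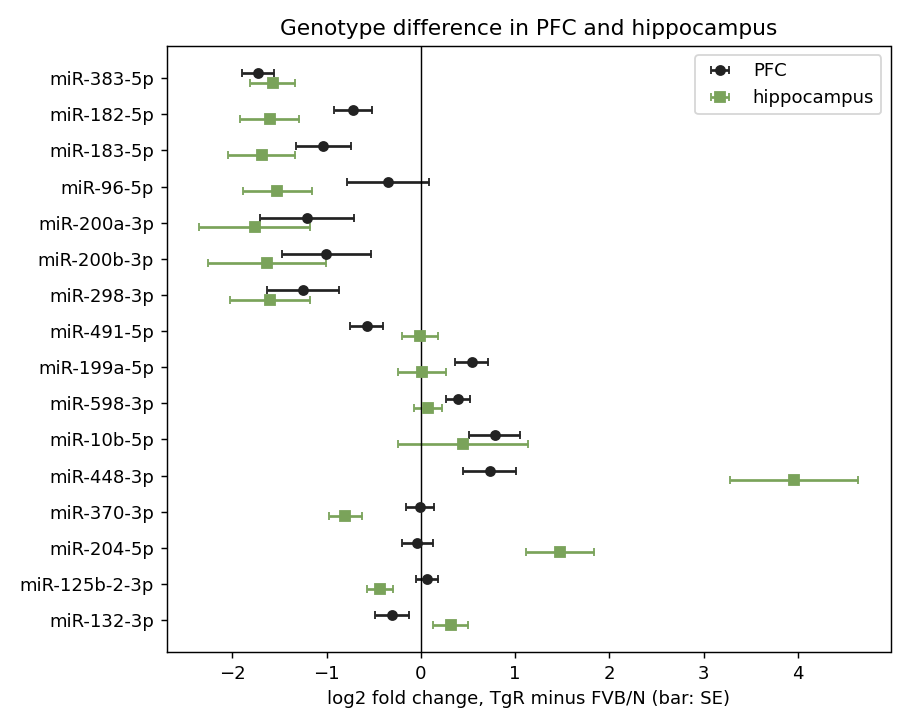
Log2 fold change, TgR minus FVB/N, with its SE (bars) for 16 miRNAs in the PFC (circles) and the hippocampus (squares). miR-383-5p lies at -1.73 and -1.57 in the 2 regions, the miR-182, miR-183 and miR-96 cluster lies below 0 in both, and miR-448-3p, miR-204-5p, miR-370-3p and miR-125b-2-3p lie nearer to 0 in the PFC. The difference between regions passed the adjusted threshold for none of the 16.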

How the data were processed

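The authors extracted total RNA with the miRNeasy kit, made libraries with the NEBNext small RNA kit, sequenced them on a NextSeq, and aligned the reads to miRBase 21 with miRExpress 2.0 under default parameters. They deposited raw counts per pair of hairpin and mature miRNA, without normalization, and pairs absent from a library were taken as 0. In the PFC 1428 pairs were listed, and 70 of 1299 mature miRNAs stood at more than 1 hairpin, 58 of them with totals within 5% of each other, so the hairpin row with the highest total was kept for each mature miRNA. Total counts per library were 9249617, 7017152 and 9420497 (FVB/N) and 9825595, 5350259, 9577343 and 10858410 (TgR). Libraries of a genotype differed by more than counting error. With 1 library per mouse, differences between mice and those from handling of the samples cannot be told apart. The reads carry no molecular identifiers.

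Groups were taken from the sample titles. The 7 PFC libraries were fitted with edgeR 4.0.16 in R 4.3.3 (TMM, filterByExpr with a minimum of 10 counts, quasi-likelihood test, Benjamini-Hochberg, adjusted p under 0.05), whereas the authors used DESeq2. TMM moved the median log2 fold change of all miRNAs from -0.022 to 0.0028. Each standard error (SE) was obtained from the fold change and its F statistic. Arm ratios (limma 3.58.1) added 0.5 counts to each arm and required a mean of 10 counts in both. Distances and components used log2 CPM with a prior count of 2. Composition and distances were tested by exact permutation over 35 assignments (scipy 1.17.1). The region test used all 13 libraries in 4 groups.

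miRNAs named were those past the threshold with their other arm, up to 8 higher and 8 lower with the smallest p among those without overlap, the 10 most abundant, the cholinergic list, and the members of the 3 highest and 3 lowest clusters; other list members, and miR-211-5p, miR-155-5p, miR-129-2-3p, miR-412-5p, miR-376a-3p, miR-137-3p, miR-153-3p, miR-1298-5p, miR-451a, miR-486a-5p, miR-124-3p, the miR-34 miRNAs, the GC content and the components were chosen after their values were seen. The members and lists were chosen with earlier results of these data known. Sequences are RefSeq's on GRCm38 (529 of 628 tested miRNAs). Hairpin positions (863 of 903 hairpins) come from GENCODE M21 or, for names absent there, from RefSeq, and genes from GENCODE M21. Alternatives were DESeq2 1.42.0, its size factors, no TMM (library size only), all miRNAs unfiltered, a minimum of 300 normalized counts on average, all pairs, hairpin rows summed, all 13 libraries in one fit, an adjusted p under 0.1, each library left out, the replicate number as a block, other pseudocounts and another distance. The scripts were tested on simulated data. The PFC samples are separate mice per the labels. The hippocampal titles name no animal, and the region test treated all 13 libraries as independent.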

Additional observations from a re-analysis of the deposited data

Results flagged for a closer look

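In TgR PFC replicate 4, miR-1a-3p (1887 CPM), miR-133a-3p (75.2 CPM), miR-206-3p (33.97 CPM) and miR-412-5p (59.0 CPM) lay far above the other 3 TgR libraries. In TgR replicate 2, miR-451a (3060 CPM) and the share of red blood cell miRNAs (0.430%) lay far above, and miR-485-5p (204.2 CPM) and miR-10a-5p (31.8 CPM) far below, the other 3. Each has a gap to its nearest neighbor that takes up most of the range of the 4 libraries. Of 89 groups of 4 checked for such a gap, 8 had one. Chance gives about 1 in 20 for a group chosen beforehand. Several of these groups, miR-412-5p and miR-451a among them, were chosen after their values were seen, so the 2 rates cannot be compared. The muscle miRNAs rest on the same library and so are not independent of each other, and the same is true of miR-451a and the red blood cell share.

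The effect of genotype differed between hippocampus and PFC for miR-34b-3p (2.56 on the log2 scale), miR-34c-5p (2.42) and miR-34c-3p (2.63), by the interaction term of edgeR (adjusted p from 0.0046 to 0.025).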

How the results depend on the processing

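miR-383-5p was the single miRNA past the threshold under all 16 alternatives at an adjusted p of 0.05, and 1 miRNA passed at 0.1. Its log2 fold change lay between -1.81 and -1.61 (adjusted p 6.7e-14 to 0.026), and the number with a changed arm ratio was 0 throughout. Every other named miRNA stayed short of the threshold under all alternatives, and miRNAs under a stricter minimum have no value there. The number with a difference between regions was 10 with DESeq2 and 2 to 8 with each library left out, and miR-34c-3p no longer passed in 6 of 16 alternatives (adjusted p up to 0.12).

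With each library left out in turn, the sign changed for the log2 fold changes of miR-128-3p (-0.19 to 0.057), miR-126a-3p (-0.21 to 0.041), let-7f-5p (-0.078 to 0.28), miR-132-5p (-0.017 to 0.21), miR-212-3p (-0.50 to 0.17), miR-212-5p (-0.20 to 0.17), miR-125b-1-3p (-0.069 to 0.087), miR-370-3p (-0.12 to 0.086), miR-370-5p (-0.048 to 0.25), miR-204-5p (-0.16 to 0.17), miR-204-3p (-0.18 to 0.17), miR-141-3p (-0.51 to 0.37), miR-96-5p (-0.68 to 0.11), miR-203-3p (-0.039 to 0.13), miR-1a-3p (-0.17 to 1.00), miR-133a-3p (-0.16 to 0.70), miR-133b-3p (-0.92 to 0.50), miR-206-3p (-0.996 to 1.94), miR-29b-3p (-0.057 to 1.06), miR-29c-3p (-0.23 to 0.84), miR-129-2-3p (-1.31 to 0.26), miR-137-3p (-0.095 to 0.77), miR-153-3p (-0.047 to 0.70), miR-34b-3p (-0.13 to 0.26), miR-34c-5p (-0.04 to 0.10), miR-34c-3p (-0.46 to 0.0037), miR-296-3p (-0.31 to 0.20), miR-130b-5p (-0.011 to 0.54), miR-301b-3p (-0.0059 to 0.47) and miR-764-5p (-0.55 to 0.33), and for the difference between regions of miR-383-5p (-0.078 to 0.32). The mean distance between minus within genotypes lay between -0.040 and 0.024, and was 0.010 with a minimum mean of 300 counts. The TgR minus FVB/N difference lay between -1.25 and 0.37 percentage points for the 5 most abundant miRNAs, -0.59 and 2.62 for the effective number, -0.55 and 1.92 points for 5p arms, -0.17 and 1.27 for let-7, -0.19 and 0.16 for Dlk1-Dio3 and -0.031 and 0.042 for red blood cell miRNAs. Values near 0 also changed sign: miR-212-5p with library size only (-0.0011), no filter (-0.0063) and the minimum of 300 (-0.017), miR-34c-5p under the same 3 (-0.022, -0.0027 and -0.021), miR-34b-3p with library size only (-0.026), and miR-204-3p and miR-764-5p with DESeq2 size factors (0.00049 and 0.0017), all pairs (0.0056 and 0.014), summed rows (0.0020 and 0.0025) and 13 libraries in one fit (0.0068 and 0.010). The cause was not tested.

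The labels state no pairing of the mice by replicate number. The correlation of deviations from the group means was -0.18, 0.41 and 0.015 for numbers 1 to 3, too few values to decide on a pairing. The numbering of the FVB/N libraries in the deposited counts differs from the titles. With the replicate number as a block, 1 miRNA passed in the PFC (miR-383-5p, log2 fold change -1.73) and 6 differed between regions. Under this block miR-141-3p was at 0.32, miR-1a-3p at -0.13, miR-133a-3p at -0.13, miR-206-3p at -1.12, miR-34c-5p at -0.026 and miR-1264-5p at -0.0053. The block leaves TgR replicate 4 without a partner. Depth limits the miRNAs of few counts, such as miR-383-3p, miR-298-3p and miR-205-5p.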
